A study of Mus musculus with 12 samples.

Results

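The hippocampus of mice lacking Tert was compared with wild-type hippocampus across every gene whose mean reached 10 normalized counts in the 6 hippocampus libraries. These were 22337 of the 55487 genes in the hippocampus table, 15967 of them protein-coding. The study profiled total RNA of C57BL/6 mouse brain in 12 libraries from cortex and hippocampus. The hippocampus gave 3 libraries of the genotype labelled mTert WT (wild type) and 3 of the genotype labelled mTert KO (G1) (knockout). The sources used here do not state the age or sex of the animals, or the time of day of sampling. Each value below is a normalized count, that is, reads per gene divided by 1 scale factor per library, and triplets of values are in the order of libraries 1, 2 and 3. A log2 fold change is knockout over wild type on log2(normalized count + 1), with its standard error (SE) where given. The length-relative log2 fold change is the same measure after each library was centred on the genes nearest in merged exonic length, which counts each exonic base of a gene once. A gene rose or fell where its limma adjusted p was below 0.05.

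Tert encodes the catalytic subunit of telomerase, the reverse transcriptase that adds repeats to chromosome ends. Most adult neurons no longer divide, and functions of the protein other than telomere extension have been studied in brain. The hippocampus holds the pyramidal neurons of fields CA1 to CA3 and the granule neurons of the dentate gyrus, and it lies against the choroid plexus, the epithelium that makes cerebrospinal fluid.

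Each library held between 72401909 and 86639113 reads when the smallest step between its values is taken as 1 read. All libraries held the marker genes of hippocampal neurons. All libraries also held the Y-linked transcripts Ddx3y, Uty and Eif2s3y and between 53.2 and 84.6 normalized counts of Xist, the transcript of the inactive X chromosome. The labels do not tie the libraries to separate animals. The p-values therefore measure only how much these samples vary, and that variation may be technical.

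Wild-type library 2 stood apart from libraries 1 and 3 in its content of choroid plexus transcripts. Ttr, the main secreted protein of that epithelium, measured 322269, 7986 and 165256 normalized counts in wild type and 13343, 5087 and 8893 in knockout. The 19 choroid plexus markers summed to 376718, 15057 and 195642 in wild type and 21169, 12450.5 and 16366 in knockout. Wild-type libraries 1 and 3 were therefore high and the other 4 libraries were low. In a bulk library, fewer cells of a type and less RNA per cell cannot be told apart.

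**Figure D1:**
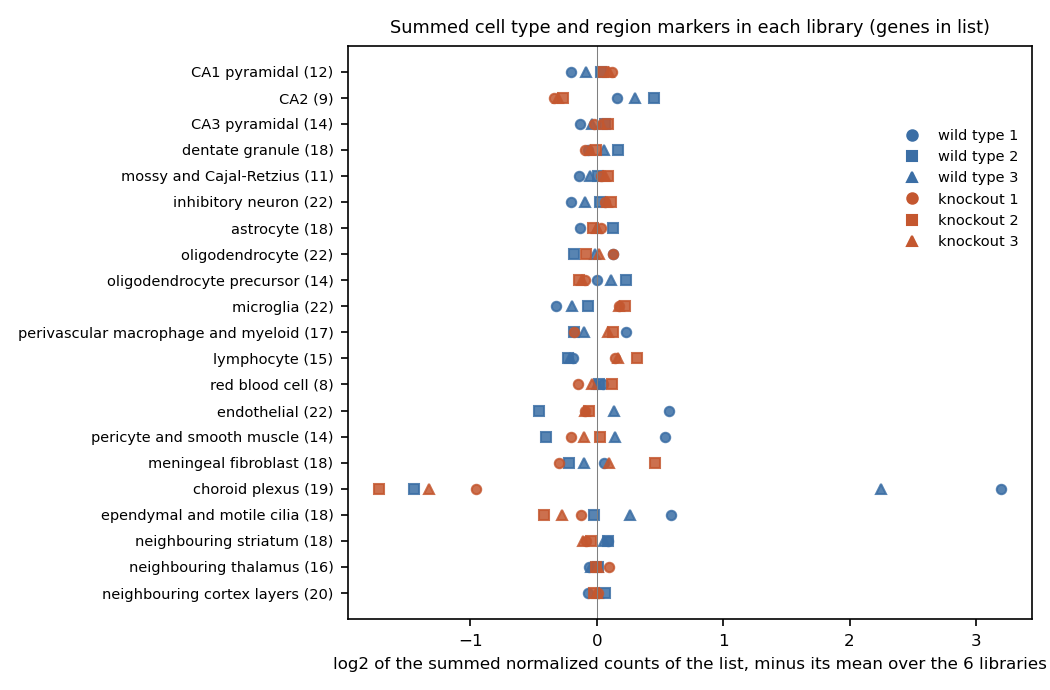
Summed normalized counts of cell type and region marker lists in each hippocampus library, as log2 minus the mean over the 6 libraries (points, 1 per library; blue wild type, orange knockout). Choroid plexus markers were highest in wild-type libraries 1 and 3, and microglia markers were higher in each knockout library than in each wild-type library.

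Library 3 of wild type lay near the mean of libraries 1 and 2. For Ttr the mean of wild-type libraries 1 and 2 was 165128, against 165256 in library 3, and for Cldn5, a tight junction protein of brain endothelium, it was 3776 against 3778. Among 902 genes with at least 100 normalized counts in wild-type libraries 1 and 2 and a difference between them of at least 1.5-fold, library 3 fell between the 2 for 843 (93.5%). Its position, scaled to 0 at library 1 and 1 at library 2, had a median of 0.52 and quartiles of 0.41 and 0.61. Measured the same way, wild-type library 2 lay between the others for 24.9% of 317 genes and wild-type library 1 for 19.1% of 429. In knockout the same pattern was weaker, since library 3 lay between libraries 1 and 2 for 76.0% of 208 genes (median position 0.49), and libraries 2 and 1 lay between the others for 60.8% of 171 and 57.3% of 150. Igkc, an immunoglobulin light chain, did not follow it, with 51.9, 16.1 and 51.8 in wild type. Whether library 3 holds RNA of the same source as libraries 1 and 2 was not tested and is not given in the labels. If it does, the groups hold fewer independent samples than 3 and the p-values are too small. Counts are therefore also given with numbers 1 and 2 of each group only, a comparison of 2 libraries with 2.

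Tert (ENSMUSG00000021611, chromosome 13, 73626911 to 73649843, GRCm38) measured 147, 184 and 128 normalized counts in wild type and 0, 6.31 and 0 in knockout. Each knockout library was below each wild-type library, as labelled. A value of 0 allows up to 3 reads in that library. Of the 19 tested genes for telomerase and for shelterin, the complex that covers telomere ends, 2 rose and 4 fell by the length-relative measure. The falls were Tert, Terf1, Pot1a and Pot1b, and the rises were Terf2ip and Dkc1. Terf1, a shelterin protein that binds telomere repeats, measured 524, 578 and 599.9 normalized counts in wild type and 440.3, 428 and 431 in knockout, with groups that did not overlap and a length-relative log2 fold change of -0.46 ± 0.08 (limma adjusted p = 0.00493). Pot1a, which binds the single-stranded end, fell by 0.28, and Terf2ip, the shelterin partner Rap1, rose by 0.13. With numbers 1 and 2 only, 1 gene of this list fell, Tert, and 0 rose.

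Between genotypes 6513 of 22337 genes were called (29.2%), of which 3141 rose (14.1%) and 3372 fell (15.1%). Rises made up 48.2% of these calls, and 60.7% after quantile normalization. Against genes of similar exonic length, 5465 of 22295 genes were called (24.5%), 2639 higher (11.8%) and 2826 lower (12.7%). With numbers 1 and 2 only, the counts were 1499 (6.71%), 140 of them higher (0.627%) and 1359 lower (6.08%), and, against genes of similar length, 1133 (5.08%), 274 higher (1.23%) and 859 lower (3.85%). Of the 1133, 1112 were also called in the same direction among the 5465. Leaving out wild-type library 3 lowered the length-relative count to 2947, and leaving out knockout library 2 lowered it to 3519. The falls were larger than the rises. By the length-relative measure 263 protein-coding genes fell by 1 or more log2 units and 23 rose by as much. At a size of at least 2, there were 75 falls and 5 rises. Of the 263 falls, 126 were also called with numbers 1 and 2 only, as were 5 of the 23 rises.

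The 263 protein-coding genes that fell by at least 1 were weakly expressed, with a median of 124 normalized counts against 1509 for all tested protein-coding genes. Only 35 of them had a mean of at least 1000. In exonic length (median 3465 against 4296 bp), coding length (1509 against 1428 bp) and genomic span (24.8 against 23.9 kb) they were near all protein-coding genes. Cortex values come from a table scaled separately, in which wild-type library 2 stood apart. Its median deviation was -0.27 in protein-coding genes over 12 kb, against 0.18 and 0.16 in libraries 1 and 3, and 0.42 up to 1 kb, against -0.07 and -0.05. This spread enters every cortex test below. In cortex 248 of them were tested, 181 of these (73.0%) had a length-relative value below 0 and 21 (8.47%) fell. For all protein-coding genes tested in both tissues these shares were 51.3% and 2.73%, and over all genes tested in cortex 3.21% rose and 2.4% fell. These comparison genes were not matched in level to the 263. In hippocampus, protein-coding genes with a mean of at most 100 had a length-relative median of -0.19. The cortex shares of weakly expressed genes were not tested. Whether cortex and hippocampus libraries share animals is unknown from the labels.

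Genes with a long merged exonic length were lower in knockout hippocampus. Among protein-coding genes over 12 kb, the median deviation of each library from the gene mean was 0.18, 0.27 and 0.24 on the log2 scale in wild type and -0.23, -0.25 and -0.21 in knockout. The libraries of the 2 groups did not overlap, and the difference of about 0.46 was larger than the SD between libraries of a group (0.036). In the class over 8 to 12 kb the median fold change was -0.16 with 41.0% of 1843 genes fallen and 8.41% risen. In the class over 2 to 4 kb it was 0.10 with 4.64% of 5019 fallen and 23.6% risen. The length-relative measure takes this trend out by construction. It moved 667 genes out of the falls without calling them, 566 of them protein-coding genes over 8 kb, and 72 called falls became called rises. Another 612 genes were called higher by the length-relative measure only.

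**Figure D2:**
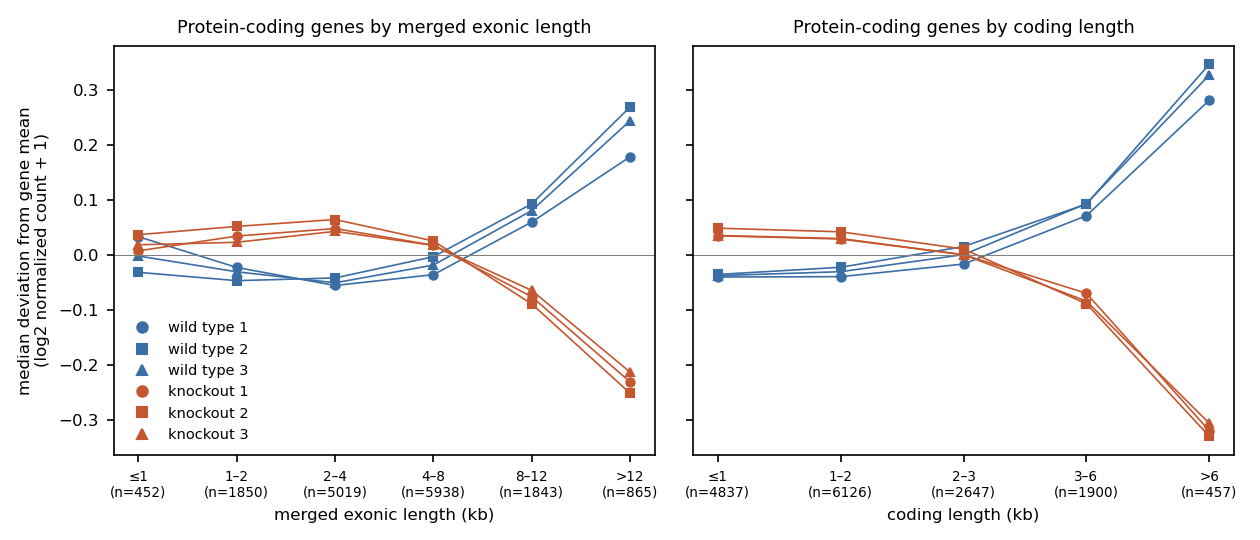
Median deviation of each library from the gene mean, on a log2 scale, for protein-coding genes grouped by merged exonic length (left) and by coding length (right), both in kb, with the number of genes under each class (lines, 1 per library; blue wild type, orange knockout). Each wild-type library lay above each knockout library beyond 8 kb of exon and beyond 3 kb of coding sequence, and the groups lay furthest apart in the longest classes.

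The decrease was larger in genes with long coding sequence than in genes with long exonic sequence outside it, merged over all transcripts. For 457 genes with over 6 kb of coding sequence the median log2 fold change was -0.66, and 78.1% of them fell. The length-relative median of these genes was still -0.30, with 51.2% fallen and 6.35% risen. By contrast, 429 genes with at most 2 kb of coding sequence and over 8 kb of other exonic sequence had a median of -0.09 and a length-relative median of 0.16, with 44.3% risen. Genes over 12 kb also differed by how much of the merged length their longest transcript held. Where it held over 0.8 of the length (167 genes), the median was -0.79. Where it held at most 0.5 (291 genes), the median was -0.19. A merged length far above that of any single transcript thus went with rises by the length-relative measure, which 53.6% of those 291 genes showed. With lengths taken from the longest transcript, 4962 genes were called, against 5465.

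Level and gene class also went with the direction of change. By the length-relative measure, 43.1% of the 1614 protein-coding genes in the highest of 4 classes of mean level rose and 10.9% fell. Of the 2293 in the lowest class, with a mean of at most 100 normalized counts, 0.916% rose and 6.98% fell. Before length was considered, the median deviation in that class was 0.23, -0.04 and 0.14 in wild type and -0.03, -0.08 and -0.06 in knockout. In the highest class it was -0.13, 0.01 and -0.07 in wild type and 0.06, 0.08 and 0.05 in knockout. In both classes wild-type library 2 lay nearer the knockout values than libraries 1 and 3, which were high in choroid plexus transcripts. The part of that content in the trend with level was not tested. Among noncoding classes, 35.9% of 103 sense-intronic genes, which lie within introns of other genes, fell (median -0.39). So did 29.3% of 1117 genes of the class TEC, models that await experimental support, and 18.1% of 1119 antisense genes. Counting without strand would mix the reads of such genes with those of their hosts, and the sources used here do not state the strand setting. Processed pseudogenes had a median of 0.07, with 3.91% of 1920 risen and 5.78% fallen.

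Genes named within each length class were the 3 largest length-relative rises and falls among called genes whose mean reached 100 normalized counts and whose groups did not overlap. Groups did not overlap for 45.8% of all tested genes, and for 42.4% by the length-relative measure. Genes named from a list were taken by smallest p, which favours groups that do not overlap. By the length-relative measure the shares of protein-coding genes that rose and fell were 4.65% and 4.87% up to 1 kb, 8.65% and 5.73% over 1 to 2 kb, and 11.6% and 6.02% over 2 to 4 kb. They were 14.9% and 11.9% over 4 to 8 kb, 26.2% and 25.1% over 8 to 12 kb, and 29.1% and 31.2% over 12 kb. The rule named 16 falls and 18 rises. With numbers 1 and 2 only, 11 of the 16 falls and 8 of the 18 rises were called, and in cortex 2 of 16 falls and 2 of 16 tested rises were called.

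Among the falls, Hipk2, a homeodomain-interacting protein kinase, measured 9731, 10785 and 10199 normalized counts in wild type and 792, 638 and 831 in knockout. Lcor, a ligand-dependent nuclear receptor corepressor, measured 1258, 1433 and 1414 normalized counts in wild type and 103, 70.4 and 81.2 in knockout. In both genes each knockout library held less than 0.1 of the lowest wild-type library. Their length-relative values were -3.64 ± 0.09 and -3.92 ± 0.14 (limma adjusted p = 4.62e-06 and 1.89e-05), and with numbers 1 and 2 only the limma adjusted p-values were 0.00298 and 0.00708. Both also fell in cortex, with length-relative values of -2.16 and -2.46 (limma adjusted p = 0.0166 and 0.0218). Kcng3, a silent potassium channel subunit that modifies Kv2 channels, measured 199, 241 and 234 normalized counts in wild type and 10.7, 7.22 and 25.1 in knockout, a length-relative value of -4.12 ± 0.40. Slc9a7, a sodium-proton exchanger of the trans-Golgi network, measured 1131, 1522 and 1411 normalized counts in wild type and 128, 137 and 174 in knockout (length-relative -3.27 ± 0.15). Acvr2b, a type II receptor for activins, measured 425, 448 and 508 normalized counts in wild type and 43.0, 72.2 and 40.6 in knockout (length-relative -3.25 ± 0.22). In Kcng3, Slc9a7 and Acvr2b the highest knockout library lay far below the lowest wild-type library. Kcng3, Slc9a7 and Acvr2b were not called in cortex (limma adjusted p = 0.0602, 0.521 and 0.0529).

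Stxbp5l, a tomosyn that restrains vesicle fusion, measured 4044, 5416 and 4839.7 normalized counts in wild type and 568, 595 and 762 in knockout (length-relative -2.77 ± 0.13, limma adjusted p = 3.42e-05). Xkr4, of a family that holds phospholipid scramblases, measured 2318, 3086 and 2625 normalized counts in wild type and 344, 304 and 355 in knockout (length-relative -3.01 ± 0.10). Hs6st3, a 6-O-sulfotransferase of heparan sulfate, measured 1368, 1797 and 1546 normalized counts in wild type and 329, 231 and 253 in knockout (length-relative -2.57 ± 0.16). In these 3 genes the wild-type values were lowest in library 1 and highest in library 2, and the knockout values lay far below both. Hs6st3 was not called in cortex, where its length-relative value was 0.56 (limma adjusted p = 0.32). Plcxd3, a phospholipase C-like protein, measured 191, 309 and 278 normalized counts in wild type and 34.2, 32.5 and 38.7 in knockout. Faxc measured 2916, 3879 and 3386 normalized counts in wild type and 1136, 397 and 337 in knockout, so knockout library 1 held more than either of the others, and its call was lost with numbers 1 and 2 only (limma adjusted p = 0.0723). Hist2h4 encodes a core histone and measured 175, 252 and 196 normalized counts in wild type and 33.2, 40.6 and 47.4 in knockout, but near-identical histone genes share its reads, so the value is uncertain. The remaining named falls were Fam205c (-1.99), Dynlt1b, a dynein light chain (-0.43), Eppk1, a plakin of epithelial cells (-1.30), and the ciliary dyneins Dnah6 (-1.37) and Dnah11 (-1.25).

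Skida1, a nuclear protein of the SKI/DACH family, measured between 201.4 and 253 normalized counts in wild type and 1299, 1396 and 1478 in knockout (length-relative 2.51 ± 0.10, limma adjusted p = 2.25e-05, and 0.00708 with numbers 1 and 2 only). In cortex its length-relative value was 0.59 (limma adjusted p = 0.684). Dlk1, an imprinted Notch ligand homologue, measured 153, 104 and 96.3 normalized counts in wild type and 373, 395 and 383 in knockout (length-relative 1.70 ± 0.18, limma adjusted p = 0.0314 with numbers 1 and 2 only). Magel2, an imprinted MAGE-family regulator of ubiquitination, measured 73.3, 76.0 and 70.9 normalized counts in wild type and 135, 226 and 169 in knockout and was not called with numbers 1 and 2 only (limma adjusted p = 0.1). In Skida1, Dlk1 and Magel2 every knockout library was above every wild-type library, as the naming rule required.

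Muc5ac, a gel-forming mucin, measured 0, 0 and 0 normalized counts in wild type and 2.93, 524 and 257 in knockout, so its rise rests on knockout libraries 2 and 3. Knockout library 3 lay near the mean of knockout libraries 1 and 2 (263). If it holds their RNA, the rise rests on knockout library 2 alone. Muc5ac was not called with numbers 1 and 2 only (limma adjusted p = 0.22). Cd14, the lipopolysaccharide coreceptor of myeloid cells, measured 97.7, 62.1 and 32.8 normalized counts in wild type and 187, 183 and 186 in knockout (limma adjusted p = 0.0671 with numbers 1 and 2 only). Scgn, a calcium-binding protein, measured 90.6, 78.1 and 99.5 normalized counts in wild type and 147, 203 and 194 in knockout. Pthlh, the parathyroid hormone-related peptide, measured 96.7, 70.6 and 101 normalized counts in wild type and 168, 138 and 169 in knockout. The naming rule required groups that did not overlap for Scgn and Pthlh too. Neither was called with numbers 1 and 2 only (limma adjusted p = 0.0793 and 0.123). Ecel1, a neuronal endopeptidase-like protein, measured 128, 111 and 126 normalized counts in wild type and 185, 374 and 331 in knockout, and Wnt9a, a Wnt ligand, measured 966, 688 and 776 normalized counts in wild type and 1497, 1572 and 1449 in knockout. Neither was called with numbers 1 and 2 only (limma adjusted p = 0.173 and 0.0568).

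Among the longest genes the named rises were called against genes that fell around them. Elmo1, which with a DOCK protein activates the small GTPase Rac, measured 3498, 3813 and 3740.3 normalized counts in wild type and 5380.4, 5073 and 4874 in knockout (length-relative 0.81 ± 0.05). Adgrb3, an adhesion receptor that binds C1q-like proteins at synapses, measured 7061, 8550.4 and 8019 normalized counts in wild type and 9014, 9699 and 9596 in knockout (length-relative 0.79 ± 0.05). Dpp10, an auxiliary subunit of Kv4 channels, measured 1946, 1719 and 1819.9 normalized counts in wild type and 2239, 2096 and 2136 in knockout (length-relative 0.72 ± 0.07). The naming rule required groups that did not overlap in these 3 genes. Their log2 fold changes before length was considered were 0.47, 0.26 and 0.24. Fam49b, a negative regulator of Rac signalling, rose by 0.61.

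**Figure D3:**
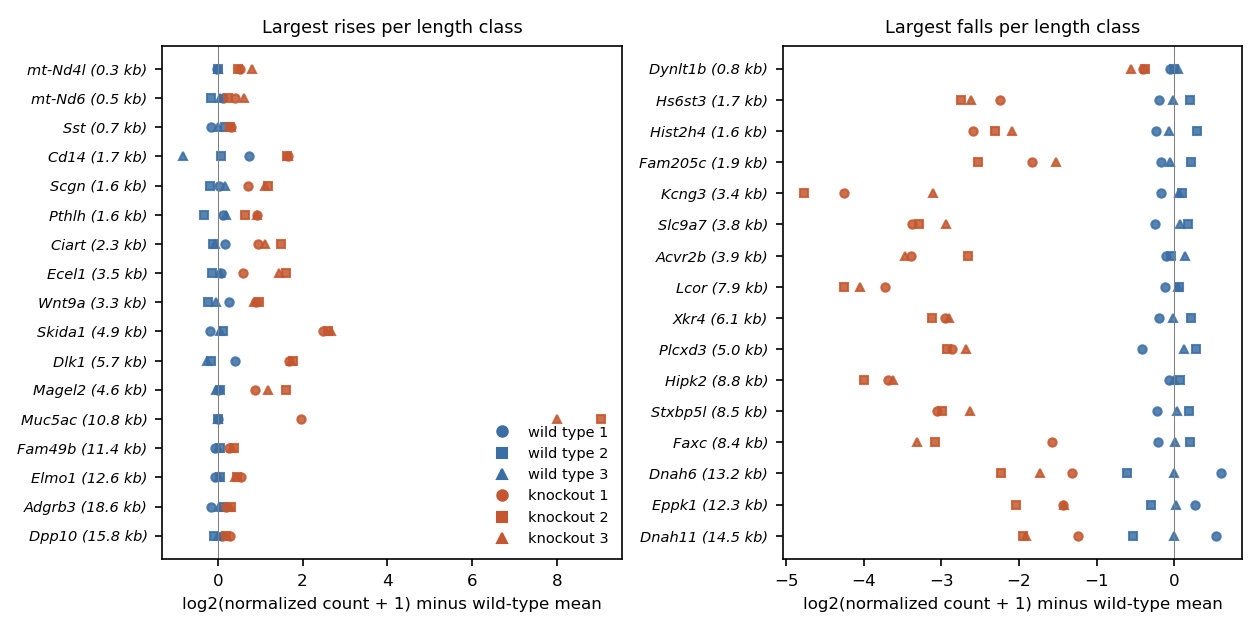
Genes with the largest rises (left) and falls (right) in each exonic length class, with the merged exonic length of each gene in kb. Points are the log2(normalized count + 1) of each library minus the wild-type mean (blue wild type, orange knockout; the length trend is not removed; 1 of the 18 rises is not drawn). Falls such as Hipk2, Lcor and Kcng3 lay more than 3 log2 units below wild type in each knockout library, while most rises were below 2 units.

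Gene groups were described by the number of members that rose or fell, to be read beside 11.8% of all tested genes that rose and 12.7% that fell by the length-relative measure. Groups of long or abundant genes are to be read beside higher shares, namely the 25.1% to 31.2% of protein-coding genes over 8 kb that rose or fell. Among protein-coding genes 19.5% rose in the second highest class of mean level and 43.1% in the highest. In the group of giant cytoskeletal and scaffold proteins, 33 of 36 fell and none rose before length was considered, with a median of -0.74. By the length-relative measure 21 fell and 0 rose (median -0.25), and 6 fell with numbers 1 and 2 only. Dst, the linker dystonin, measured 39863, 42878 and 40425 normalized counts in wild type and 18272, 17649 and 18076 in knockout (length-relative -0.66 ± 0.03). Macf1, which links actin and microtubules, measured 36811, 37221 and 37276 normalized counts in wild type and 18669, 18514 and 18504 in knockout (length-relative -0.47 ± 0.04). Golgb1, the Golgi tether giantin, measured 12779.8, 13258 and 12588 normalized counts in wild type and 6788, 6740.3 and 6838 in knockout (length-relative -0.62 ± 0.03). In each of the 3 genes the groups lay far apart and the libraries of a group close together. With lengths from the longest transcript, 11 of the group fell and 2 rose, so the size of this group's decrease depends on which length is used.

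Sodium and calcium channels, the pores that carry action potentials and calcium entry, fell more often than they rose. Of 31 tested, 15 fell and 4 rose by the length-relative measure (median -0.19), 4 and 1 with numbers 1 and 2 only, and 7 and 5 with lengths from the longest transcript. Cacna1e, the pore of R-type calcium channels, measured 45375, 55344 and 51041 normalized counts in wild type and 23329, 23256 and 24544 in knockout (length-relative -0.56 ± 0.05). Cacna1c and Cacna1d, the pores of neuronal L-type channels, had length-relative values of -0.42 ± 0.04 and -0.32 ± 0.04. The 4 that rose were not pore subunits but auxiliary ones, chosen here after their values were seen: Cacnb1, Cacnb2, Cacna2d2 and Cacna2d3. Cacnb2 measured 4991, 5824 and 5376 normalized counts in wild type and 5726, 5752 and 5836 in knockout, so the groups overlapped before length was considered, and its length-relative value was 0.48 ± 0.05. Potassium channels were divided, with 13 risen and 12 fallen among 59 (3 and 6 with numbers 1 and 2 only). Kcna1, the Kv1.1 subunit that sets axonal excitability, measured 6308, 7557 and 7000.3 normalized counts in wild type and 1846, 1529.7 and 1728 in knockout (length-relative -2.12 ± 0.09, limma adjusted p = 0.00838 with numbers 1 and 2 only). Kcnh5, an ether-à-go-go channel, had a length-relative value of -1.40 ± 0.11, and Kcnj4, an inward rectifier, rose by 0.47 ± 0.04.

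At the synapse, postsynaptic genes rose more often than they fell. Of 30 tested, 18 rose (60%) and 3 fell by the length-relative measure (median 0.18), 5 and 2 with numbers 1 and 2 only. Before length was considered 10 rose and 6 fell (median 0.05). The list is of abundant and long genes, with a median mean of 23211 normalized counts and a median length of 9269 bp. Its 60% stands beside 43.1% of protein-coding genes that rose in the highest class of mean level. Dlg4, the scaffold PSD-95, measured 65725, 76886 and 71891 normalized counts in wild type and 85759, 87010.3 and 84565 in knockout (length-relative 0.65 ± 0.05). Dlgap4, which joins PSD-95 to Shank proteins, measured 24094, 26808 and 25718 normalized counts in wild type and 32288, 31764 and 31068 in knockout (length-relative 0.44 ± 0.04). For Dlgap1 and Kalrn the groups overlapped in the deposited values, and their length-relative values of 0.57 ± 0.04 and 0.47 ± 0.05 arose against long genes that fell. Of 35 synaptic vesicle genes, 17 rose (48.6%, near the 43.1% of genes in the highest class of mean level) and 3 fell, but 1 and 2 with numbers 1 and 2 only. Syn3, a synapsin, was the largest of the falls, at 1136, 1342 and 1346 normalized counts in wild type and 317, 313 and 292 in knockout (length-relative -1.72 ± 0.08, limma adjusted p = 0.00958 with numbers 1 and 2 only). In the presynaptic active zone 5 of 23 rose (21.7%) and 6 fell (26.1%), shares near those of genes over 8 kb, and 1 and 1 with numbers 1 and 2 only. Pclo, the scaffold piccolo, fell by 0.43, and Nrxn2, a neurexin, rose by 0.69 ± 0.05.

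Receptors for GABA and glutamate moved in both directions. Of 19 GABA receptor and anchoring genes, 10 rose and 1 fell by the length-relative measure (median 0.27), but 0 and 1 with numbers 1 and 2 only. The fall was Gabrb2, a beta subunit of GABA-A receptors, at 6549, 8599.6 and 7586 normalized counts in wild type and 2155, 1890.5 and 2196 in knockout (length-relative -1.87 ± 0.10, limma adjusted p = 0.0105 with numbers 1 and 2 only). Gabrb2 was lower in each knockout library than in any wild-type library, and groups did not overlap for 45.8% of all tested genes. Among 30 glutamate receptor genes, 11 rose and 5 fell, against 1 and 2 with numbers 1 and 2 only. Grin2b, an NMDA receptor subunit, fell by 0.39, and Grik3, a kainate receptor subunit, fell by 0.53.

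Of 74 chromatin modifiers and remodelers, 45 fell and 7 rose before length was considered, and 28 and 20 by the length-relative measure (10 and 4 with numbers 1 and 2 only). The latter shares of 37.8% and 27.0% stand beside 31.2% and 29.1% of protein-coding genes over 12 kb and 25.1% and 26.2% over 8 to 12 kb, and the median length of the list was 11772 bp. Kmt2a, a histone H3 lysine methyltransferase, measured 21642, 24811 and 23667 normalized counts in wild type and 8860.0, 8907 and 8659 in knockout (length-relative -0.89 ± 0.04). The related Kmt2c and Kmt2d had length-relative values of -0.62 ± 0.04 and -0.43 ± 0.04, and Kat6a, a histone acetyltransferase, -0.64 ± 0.04. Of 24 corepressors and related kinases, 14 fell and 3 rose (8 and 0 with numbers 1 and 2 only). This list holds Hipk2 and Lcor and was drawn up with their values known, so its count is not independent of them. Hipk1 measured 11156, 12687 and 11779 normalized counts in wild type and 7170.0, 6787 and 7208 in knockout and Hipk3 6106, 6083 and 6285 normalized counts in wild type and 3258, 3307 and 3896 in knockout, kinases of the same family as Hipk2, with length-relative values of -0.53 ± 0.05 and -0.74 ± 0.07. Their decreases were far smaller than that of Hipk2. Among DNA damage and p53 genes 6 of 29 fell and 2 rose (4 and 0 with numbers 1 and 2 only). Atm, the kinase that senses double-strand breaks, measured 1799.8, 2083 and 2010.3 normalized counts in wild type and 857, 812 and 817 in knockout (length-relative -1.05 ± 0.06), and Prkdc, the catalytic subunit of DNA-dependent protein kinase, had a length-relative value of -0.49 ± 0.05.

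**Figure D4:**
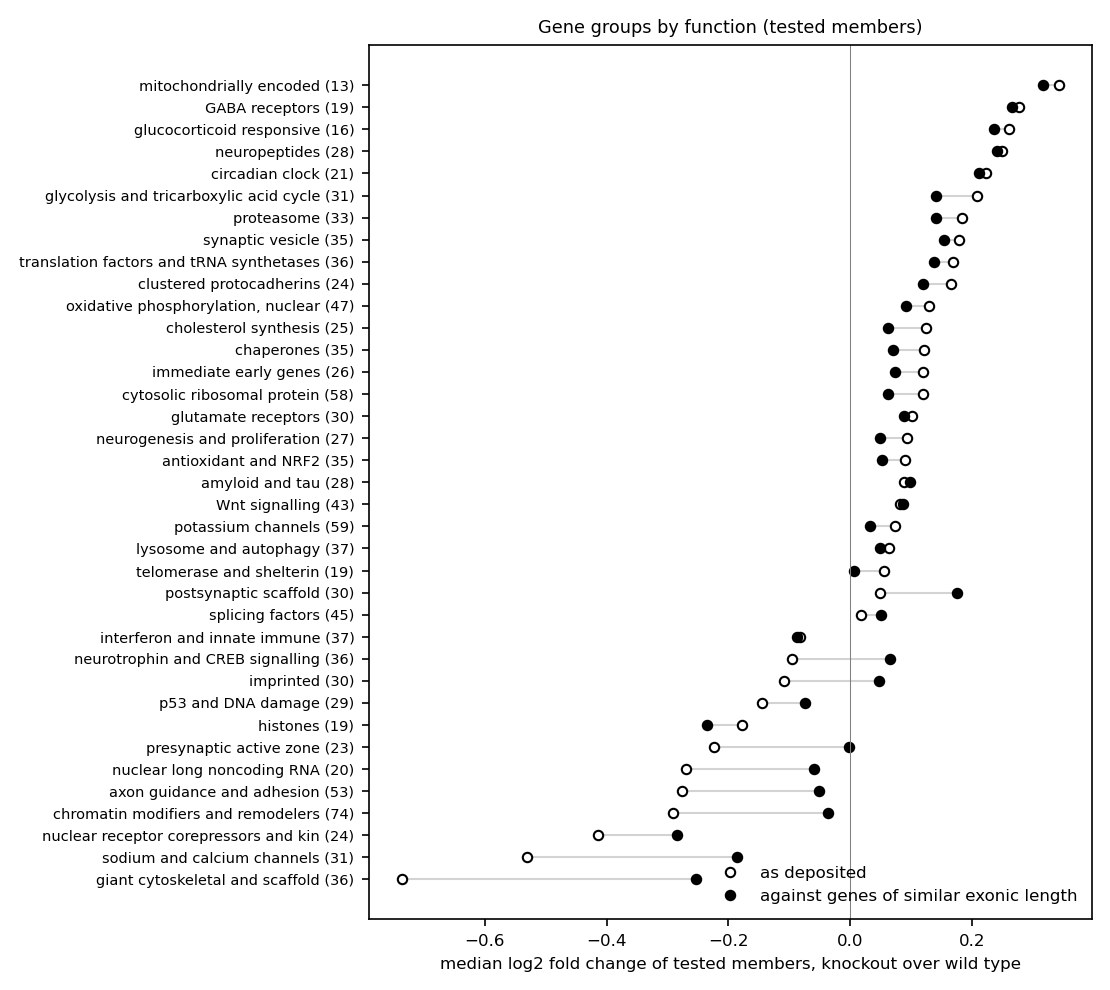
Median log2 fold change (knockout over wild type) of the tested members of each functional gene group, from the deposited values (open circles) and against genes of similar exonic length (filled circles). Groups of long genes such as giant cytoskeletal proteins and ion channels moved towards 0 when set against genes of similar length, and postsynaptic scaffolds moved from 0.05 to 0.18.

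Genes for energy supply and protein turnover showed small differences in 1 direction. Of 33 proteasome genes 19 rose and 0 fell (median 0.14), of 47 nuclear genes of oxidative phosphorylation 17 rose and 0 fell, and of 31 genes of glycolysis and the tricarboxylic acid cycle 15 rose and 0 fell. With numbers 1 and 2 only, the rises numbered 0, 1 and 1. Set against protein-coding genes of similar length in the same tercile of mean level, they numbered 6, 4 and 7. Psmd1, a scaffold subunit of the proteasome, measured 7929.8, 8096 and 8128 normalized counts in wild type and 9056, 9746 and 9601 in knockout (length-relative 0.29 ± 0.04). Ndufs1, a complex I subunit, measured 8082, 8499 and 8245 normalized counts in wild type and 10084, 10353 and 10048 in knockout (length-relative 0.40 ± 0.03). The groups of Psmd1 and Ndufs1 lay apart, with small differences. Of 36 translation factors and tRNA synthetases 17 rose and 0 fell (2 and 0 with numbers 1 and 2 only). Cytosolic ribosomal protein genes rose in 5 of 58 (8.62%) and fell in 0, with 0 and 0 for numbers 1 and 2 only. That share was below the 11.8% of all tested genes that rose. Transcripts encoded by the mitochondrial genome rose in 9 of 13 genes, 2 with numbers 1 and 2 only and 2 after quantile normalization, when 1 fell. mt-Nd5, a complex I subunit, measured 202835, 193904 and 203512 normalized counts in wild type and 304252, 288111 and 330626 in knockout (length-relative 0.61 ± 0.06). mt-Nd4l, whose end overlaps the start of mt-Nd4, measured 28459, 28824 and 28971 normalized counts in wild type and 41162, 40315 and 50347 in knockout and mt-Nd6, on the opposite strand from most mitochondrial genes, 72012, 59682 and 68427 normalized counts in wild type and 87883, 78737 and 102425 in knockout. Knockout library 3 was the highest in each of the 3.

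In the mammalian clock, CLOCK or NPAS2 pairs with BMAL1 on the E-box, the sequence CACGTG, and drives genes of repressors that later shut the pair off. Of 21 clock genes 11 rose and 3 fell by the length-relative measure, 4 and 1 with numbers 1 and 2 only. The falls were Clock, Nfil3 and Per3, and the rises held repressors, the output factor Dbp and the activator Npas2; Dbp, Npas2, Nfil3 and Per3 are named here after their values were seen. Ciart, a repressor of the CLOCK pair, measured 569, 469.8 and 486 normalized counts in wild type and 978, 1416 and 1105 in knockout (length-relative 1.15 ± 0.13, limma adjusted p = 0.0426 with numbers 1 and 2 only). It rose in cortex as well, by 1.65 (limma adjusted p = 0.00171). Nr1d1, the repressor REV-ERB alpha, measured 6802, 5958 and 6242 normalized counts in wild type and 10076, 11392 and 10464 in knockout (length-relative 0.66 ± 0.06). Bhlhe41, the repressor DEC2, measured 3218, 3419.5 and 3387 normalized counts in wild type and 4760.5, 5084 and 4756 in knockout (length-relative 0.56 ± 0.04), and Per1, a period protein, 6772, 7530.4 and 7321 normalized counts in wild type and 10658, 10745 and 10019.7 in knockout (length-relative 0.50 ± 0.04). For these 4 repressors the libraries of the groups did not overlap, as for 45.8% of all tested genes. Clock itself measured 6836, 7295 and 7022 normalized counts in wild type and 4015, 4167 and 4321 in knockout (length-relative -0.37 ± 0.04). With no stated time of sampling, genotype and time of sampling cannot be told apart in these genes.

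**Figure D5:**
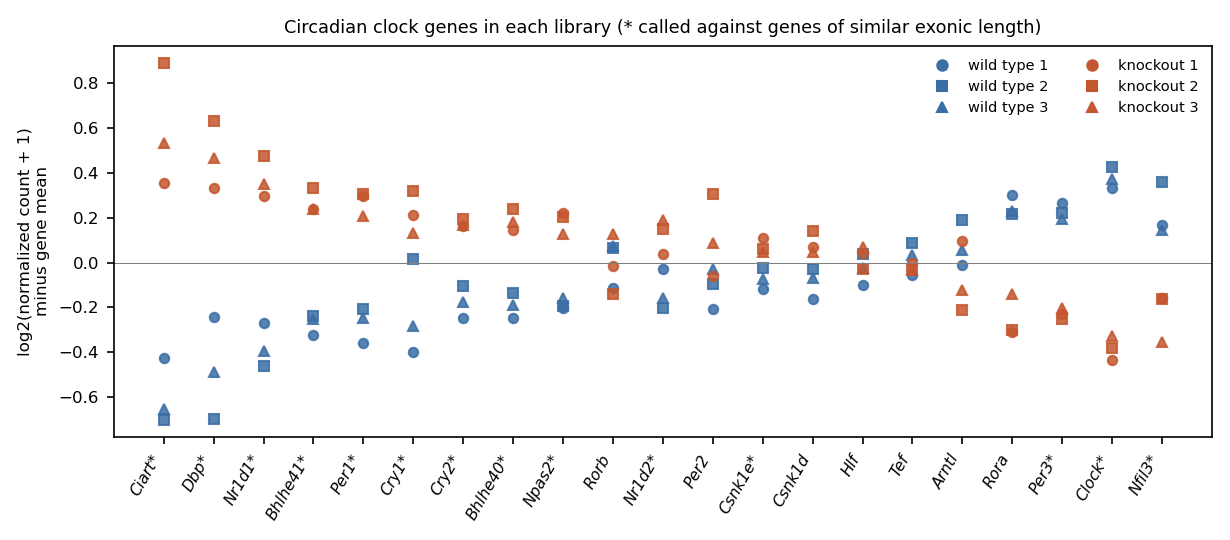
Circadian clock genes in each hippocampus library, as log2(normalized count + 1) minus the gene mean (points; blue wild type, orange knockout), with asterisks on genes called by the length-relative measure. Ciart and Nr1d1 were higher in every knockout library than in every wild-type library, and Clock was lower.

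The promoters of clock genes are shown because the E-box is an element through which the CLOCK pair acts. In RefSeq promoter windows of 250 bases before to 50 bases after the start (GRCm38.p6, 1 window per gene), 5 of 18 tested clock genes held CACGTG, which reads the same on both strands. It was present in 9.53% of 12292 windows of tested protein-coding genes. Among protein-coding genes, 11.4% of 1886 that rose by the length-relative measure and 8.64% of 1435 that fell held it. The windows of Ciart (chr3:95882179-95882478, minus strand), Bhlhe41 (chr6:145865371-145865670, minus strand) and Per1 (chr11:69098699-69098998, plus strand) are given 5′ to 3′, with each CACGTG in capitals.
Ciart: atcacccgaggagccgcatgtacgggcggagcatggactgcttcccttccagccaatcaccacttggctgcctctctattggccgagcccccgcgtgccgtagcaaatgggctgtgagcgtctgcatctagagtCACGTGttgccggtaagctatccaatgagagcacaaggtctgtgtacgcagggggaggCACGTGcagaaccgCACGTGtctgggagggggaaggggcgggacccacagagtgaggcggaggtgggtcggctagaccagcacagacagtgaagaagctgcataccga
Bhlhe41: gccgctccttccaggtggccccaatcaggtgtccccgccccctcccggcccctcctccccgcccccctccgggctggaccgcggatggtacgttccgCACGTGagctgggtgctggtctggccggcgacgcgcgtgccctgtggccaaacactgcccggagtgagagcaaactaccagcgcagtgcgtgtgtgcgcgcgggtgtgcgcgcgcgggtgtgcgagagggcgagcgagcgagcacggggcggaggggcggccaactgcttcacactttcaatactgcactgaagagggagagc
Per1: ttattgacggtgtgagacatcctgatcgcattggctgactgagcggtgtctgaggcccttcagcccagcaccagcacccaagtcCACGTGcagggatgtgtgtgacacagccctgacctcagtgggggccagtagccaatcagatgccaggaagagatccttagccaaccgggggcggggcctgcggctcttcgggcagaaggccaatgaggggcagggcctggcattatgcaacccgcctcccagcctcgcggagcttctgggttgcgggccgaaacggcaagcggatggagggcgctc
Ciart held 3 matches and Bhlhe41 and Per1 held 1 each. Among clock genes with a window, 4 of 10 that rose, 0 of 3 that fell and 1 of 5 not called held CACGTG. The uncalled gene was Tef (length-relative 0.05, limma adjusted p = 0.46). The windows shown are all of genes that rose, and whether the motif went with a rise was not tested. The window of Nr1d1 held none, which says only that these letters are absent from this window.

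Microglia markers were higher in knockout. Their sum was 39885, 47586 and 43689 normalized counts in wild type and 56534, 58432 and 56442 in knockout, and the groups did not overlap. Of 22 markers 14 rose and 0 fell by the length-relative measure (median 0.27), against 2 and 0 with numbers 1 and 2 only and 5 and 0 against wild-type library 2 alone, the wild-type library low in choroid plexus transcripts. P2ry12, the purinergic receptor of resting microglia, measured 1237, 1453 and 1426 normalized counts in wild type and 2170.3, 2097 and 2352 in knockout (length-relative 0.63 ± 0.08). Itgam, the integrin CD11b, measured 1385, 1477 and 1440.0 normalized counts in wild type and 2037, 2103 and 2168 in knockout (length-relative 0.49 ± 0.05). Csf1r, the receptor on which microglia depend, measured 5619, 6799 and 6306 normalized counts in wild type and 8573, 8984 and 8422 in knockout. In P2ry12, Itgam and Csf1r wild-type library 1 was the lowest of all. Wild-type library 1 was also the highest in choroid plexus transcripts, and the part of that difference in the microglia result was not tested.

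Markers of the vasculature and of the ventricle lining differed between the wild-type libraries. Cldn5 measured 5414, 2138 and 3778 normalized counts in wild type and 1977, 2213 and 2044 in knockout, and the 22 endothelial markers had a length-relative median of -0.24, with 1 risen and 0 fallen. Against wild-type library 2 alone the median was 0.41 and 14 rose, so the direction of the endothelial markers depends on the wild-type library. Mfsd2a, the lipid transporter of the blood-brain barrier, was the 1 endothelial marker that rose, at 1145, 1224 and 1207 normalized counts in wild type and 1729, 1798 and 1581 in knockout (length-relative 0.47 ± 0.07, limma adjusted p = 0.0391 with numbers 1 and 2 only). For choroid plexus markers the length-relative median was -2.25 and none of 19 was called on that measure by limma, while edgeR called 13 lower. On the deposited values limma called 1 lower, Prlr, the prolactin receptor, named after its value was seen (log2 fold change -2.97, limma adjusted p = 0.0466). Against wild-type library 2 alone the length-relative median was 0.14. Of 18 markers of ependymal cells and motile cilia 4 fell, and 0 with numbers 1 and 2 only. Dnah6, a heavy chain of the ciliary motor, measured 1599, 688 and 1053 normalized counts in wild type and 422, 224 and 316 in knockout, and Hydin, of the central pair of the cilium, 797, 607 and 654 normalized counts in wild type and 286, 207 and 239.8 in knockout. Both were highest in wild-type library 1, as were the choroid plexus markers, and the part of that content in their falls was not tested.

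Hippocampal field markers differed gene by gene. Of 12 CA1 markers 4 rose and 0 fell (2 and 0 with numbers 1 and 2 only), among them Wfs1, an endoplasmic reticulum protein dense in CA1, at 10377, 11748 and 11245 normalized counts in wild type and 15986, 16300.1 and 15702 in knockout (length-relative 0.46 ± 0.05). Of 18 dentate granule markers 2 rose and 6 fell (1 and 3 with numbers 1 and 2 only). Prox1, the transcription factor that keeps granule cell identity, measured 11255, 13729 and 12734 normalized counts in wild type and 7766, 8137 and 8229.8 in knockout (length-relative -0.52 ± 0.06). Rfx3, a transcription factor of the RFX family, measured 8805, 10483 and 10093 normalized counts in wild type and 4778, 4981 and 5783 in knockout (length-relative -0.70 ± 0.08). In Prox1 and Rfx3 every knockout library was below every wild-type library, and groups did not overlap for 45.8% of all tested genes. Yet Pitpnm2, on the same list, had a length-relative value of 0.42 ± 0.05 with groups that overlapped before length was considered. The summed dentate markers were 166064, 194960.0 and 181358 in wild type and 162968, 173017 and 167626 in knockout, and these overlapped. Adcy1, a calmodulin-stimulated adenylyl cyclase on the CA2 list, measured 125476, 156078 and 139628 normalized counts in wild type and 79862, 84971 and 82084 in knockout (length-relative -0.42 ± 0.07) and made up most of the sum of that list.

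Inhibitory neuron, astrocyte and oligodendrocyte markers rose in part, but the astrocyte and oligodendrocyte sums overlapped between the groups. Of 21 inhibitory neuron markers 7 rose and 2 fell (1 and 1 with numbers 1 and 2 only). Gad1, which makes GABA, measured 16774, 19501 and 18015 normalized counts in wild type and 23709.5, 24608 and 24307 in knockout (length-relative 0.50 ± 0.05), and Slc32a1, which loads it into vesicles, 4491, 5347 and 4703 normalized counts in wild type and 6527, 6763 and 6596 in knockout (length-relative 0.37 ± 0.06). Erbb4, the neuregulin receptor of interneurons, fell, at 3189, 3451 and 3562 normalized counts in wild type and 1897, 1779 and 2013 in knockout (length-relative -0.52 ± 0.05). Sst, the neuropeptide somatostatin, measured 8474, 10586 and 9434 normalized counts in wild type and 11786, 11529.6 and 11757 in knockout. Of 18 astrocyte markers 9 rose (50%) and 1 fell (1 and 0 with numbers 1 and 2 only). The sum of these markers was 544683, 650228 and 597872 in wild type and 610971, 583198 and 596309 in knockout. Their median mean was 10234 normalized counts, in the class of mean level where 43.1% of protein-coding genes rose. Fgfr3, a growth factor receptor of astrocytes, rose by 0.50 ± 0.06, and Slc4a4, a bicarbonate transporter, fell by 0.33. Of 22 oligodendrocyte markers 8 rose (36.4%) and 1 fell (0 and 0 with numbers 1 and 2 only), with Hapln2, a link protein of the node of Ranvier, at 2378, 2555 and 2409 normalized counts in wild type and 3509.8, 3199 and 3212 in knockout. The oligodendrocyte markers summed to 642782, 519875 and 582773 in wild type and 642783, 555048 and 594651 in knockout. Their median mean was 7945 normalized counts, in the class of mean level where 19.5% of protein-coding genes rose. Of 28 neuropeptide and processing genes 11 rose and 0 fell (1 and 0 with numbers 1 and 2 only), with Pam, the enzyme that amidates peptides, at 11109, 12779 and 12219.8 normalized counts in wild type and 13774, 14424 and 14009 in knockout (length-relative 0.52 ± 0.05).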

How the data were processed

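The hippocampus values are a signal per gene that the authors deposited as normalized counts, that is, gene counts divided by 1 size factor per library. Per the submitters' processing notes, STAR, HTSeq, DESeq2 and build GRCm38 were used, and the labels do not state their settings. Every value was a whole multiple, within 0.001, of its library's smallest step, and edgeR 4.0.16 on the reads so recovered called 6684 genes. Genes with a mean of at least 10 were fitted as log2(value + 1) with limma 3.58.1 in R 4.3.3 (moderated test with a mean-dependent prior, Benjamini-Hochberg threshold 0.05), unpaired, on 3 against 3 libraries. For the length-relative measure, the median deviation of the window of genes nearest in merged exonic length was subtracted in each library. Lengths came from GENCODE vM21 on GRCm38 and promoters from RefSeq on GRCm38.p6. Tables were made with Python 3.11.15, pandas 2.3.3 and numpy 2.4.6. The cortex table, scaled separately, was fitted in the same way on its own 6 libraries.

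On data simulated for the hippocampus comparison (22295 genes, 100 changed at each size, with a length trend planted), the length-relative measure recovered 60% of changes of 1 log2 unit and 39% of 0.5, and 10.8% of its calls were unchanged genes. Without it 89.5% of calls were unchanged genes that carried the trend. The planted trend was the one that the measure subtracts, so its removal was fixed in advance. The simulated libraries were also drawn independently, so these shares do not give the error rate of the calls in the hippocampus data.

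Members and gene lists were chosen with earlier results of these data known. Named genes were Tert, 3 rises and 3 falls per length class among called genes with a mean of at least 100, no group overlap and at most 10% of exonic bases shared with another gene, and, from each list, at most 4 genes ranked by p. The alternatives tried were other pseudocounts, filters, windows and scalings, DESeq2 1.42.0 and edgeR, a replicate block, and each library left out. The fits with numbers 1 and 2 only and with wild-type library 2 alone were chosen after seeing the data. Some genes that the rule names are not reported here.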

Additional observations from a re-analysis of the deposited data

How the results depend on the processing

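Counts of calls depended on which libraries were used. Leaving out each library in turn gave 3655 (without wild-type library 3) to 7866 (without wild-type library 2) calls, against 6513, and 2947 to 6762 against genes of similar length, where the count was 5465. Without knockout library 2 the counts were 4032 and 3519. Numbers 1 and 2 of each group only gave 1499 and 1133. Wild-type library 2 alone against the 3 knockout libraries gave 3238 and 3028, with the lone library assumed to vary like the others, and a median over 12 kb of -0.50 (-0.4997). Fewer libraries were fitted in each of these. Rises made up 48.2% of calls, 60.7% after quantile normalization, 37.4% with no trend of the prior variance and 9.34% with numbers 1 and 2 only. With the replicate number as a block, 6015 and 4979 genes were called. Deviations of same-numbered libraries correlated at -0.03, 0.09 and -0.02, and those of libraries with unlike numbers at -0.10 to 0.12. With 3 libraries per group these values cannot tell whether the numbers pair the libraries.

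For named genes, 8702 alternative values kept direction and side of the threshold, 755 kept direction but were no longer called, 120 became called and 25 changed sign; the cause was not tested. With wild-type library 2 alone, log2 fold changes became 0.213 (Vwf), 0.0753 (Egfl7), 0.0822 (Acta2), 0.0325 (Aqp1), -0.0217 (Fosl2), -0.0133 (Cacnb2), -0.0327 (Pitpnm2) and -0.0732 (Dlgap1), and length-relative values 0.0165 (Egfl7) and 0.0019 (Acta2). Quantile normalization gave -0.0031 (Pitpnm2), -0.0141 (Dlgap1), -0.0096 (Hnrnpu) and, length-relative, -0.0462 (mt-Cytb). Lengths of the longest transcript gave 0.0456 (Gsk3b), -0.153 (Nfkb1) and -0.0609 (Nrf1). Nrf1 was -0.0075 with DESeq2 and -0.0118 with edgeR, and Vwf 0.0246 with numbers 1 and 2 only. Leaving out single libraries, Vwf ranged from -0.1752 to 0.0599, Dlgap1 from -0.0139 to 0.1069 and Nrf1 from -0.0097 to 0.0239.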

Other observations

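Immediate early genes, which neurons switch on after activity, rose about as often as genes of their level: 5 of 26 rose (19.2%, against 19.5% of protein-coding genes in the second highest class of mean level) and 0 fell by the length-relative measure, 7 and 1 before length was considered, and 0 and 0 with numbers 1 and 2 only. Egr1, a zinc finger factor, measured 5492, 6878 and 6323 normalized counts in wild type and 8676, 9342 and 8741 in knockout (length-relative 0.45 ± 0.07). Bdnf, a neurotrophin, measured 2585, 3028 and 3039.9 normalized counts in wild type and 3674, 3932 and 3966 in knockout (length-relative 0.41 ± 0.07). Every knockout library was above every wild-type library in both genes, and groups did not overlap for 45.8% of all tested genes. Of 16 glucocorticoid responsive genes 6 rose and 2 fell (1 and 1 with numbers 1 and 2 only). Sgk1, a kinase induced by the hormone, measured 4422, 4543 and 4493 normalized counts in wild type and 8297, 6113 and 6959 in knockout (length-relative 0.58 ± 0.10), and Nr3c1, the glucocorticoid receptor, 7038, 7106 and 6987 normalized counts in wild type and 5447, 5206 and 5882 in knockout (length-relative -0.28 ± 0.05).

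Lysosome and autophagy genes were divided, with 12 of 37 risen and 7 fallen (2 and 6 with numbers 1 and 2 only). The lipid transfer protein Vps13c measured 15448, 19181 and 17291 normalized counts in wild type and 6052, 6150.4 and 6170.2 in knockout (length-relative -0.997), and Wdfy3, the autophagy scaffold ALFY, 20657, 25419 and 23284 normalized counts in wild type and 10648, 10343 and 10874 in knockout (length-relative -0.64 ± 0.05). Among 45 splicing factors 14 rose and 4 fell (2 and 3 with numbers 1 and 2 only). Srrm2, a large protein of nuclear speckles, measured 84177, 88215 and 86035 normalized counts in wild type and 46436, 44239.8 and 43665 in knockout (length-relative -0.59 ± 0.04), and Tra2a, a splicing activator, 6015, 6309 and 6201 normalized counts in wild type and 3742, 3612 and 3844 in knockout (length-relative -0.70 ± 0.04). Of 30 imprinted genes 9 rose and 4 fell (3 and 2 with numbers 1 and 2 only), with Igf2r, a receptor that clears insulin-like growth factor 2, at 4212, 4420.2 and 4300.0 normalized counts in wild type and 2539, 2691 and 2471 in knockout (length-relative -0.60 ± 0.05). In Vps13c, Wdfy3, Srrm2, Tra2a and Igf2r the groups did not overlap, as for 45.8% of all tested genes.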
